A study of Mus musculus with 11 samples.

Results

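The 10 genes described here belong to fibroblast growth factor (FGF) signalling and its feedback control, and were followed across muscle stem cells of middle-aged and geriatric mice. They are the Sprouty genes Spry1, Spry2 and Spry4, the Sprouty-related gene Spred1, the phosphatase gene Dusp6, the receptor genes Fgfr1 and Fgfr4, the ligand genes Fgf2 and Fgf7, and the growth arrest gene Gas1. Genes were taken by symbol, and 10 of 10 were found among the 20640 symbols of the deposited expression table. The cells came from limb muscle of Pax7-CreERT2;Rosa-YFP mice, in which oral tamoxifen (240 mg/kg for 5 days at 12 to 14 weeks of age) switched on YFP in cells expressing Pax7. The allele, the tamoxifen and a sort for YFP+ cells lacking the lineage markers (Sca-1, CD31 and CD45 antibodies were used) are shared by all libraries. The middle-aged group has 3 libraries, aged 10 to 14 months by the sample labels and 12 to 14 months by the extraction protocol. Geriatric mice were over 28 months old, and their YFP+ cells were sorted on surface VCAM1 into a high gate (VCAM1-high, 3 libraries), a low gate (VCAM1-low, 2) and a negative gate (VCAM1-negative, 3). Gate names follow the sample titles, whereas the design text names the gates below high as mid and low/-. Middle-aged titles name no VCAM1 gate, so in each comparison with that group the age, the gate and the interval since tamoxifen differ at once and cannot be told apart. The labels do not say whether replicates are separate animals, so a p-value here reflects the spread among libraries, which may be technical.

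FGF ligands bind receptor tyrosine kinases together with heparan sulfate chains on the cell surface, and the receptors signal through adaptor proteins to Ras and the ERK kinases. ERK activity induces its own inhibitors: Sprouty and Spred proteins act upstream, between the receptor and ERK, and DUSP6 removes the phosphates from ERK itself. In mouse muscle stem cells Spry1 is known for its part in quiescence, and FGF2 from the fibre niche is known to rise in aged muscle.

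The libraries held an estimated 19.9 to 29.8 M reads each, so that 1 read on 1 kb of transcript is 0.0335 to 0.0503 RPKM (reads per kilobase of gene, scaled to the mapped reads of the library). Stem cell markers (11 genes, none at 0 in any library) summed to 2157 to 3128 RPKM in middle-aged, 1765 to 2759 in VCAM1-high, 1634 to 1854 in VCAM1-low and 1221 to 1800 in VCAM1-negative libraries. Mature fibre markers (11 of 12 in the table, none at 0) summed to 162 to 336 RPKM in middle-aged, 63.4 to 156 in VCAM1-high, 56.4 to 166 in VCAM1-low and 699 to 7236 in VCAM1-negative libraries. Middle-aged replicate 3 held the most endothelial (232 RPKM over 11 genes, against 22.5 and 29.4 in replicates 1 and 2), tenocyte (125 over 4 genes, against 14.5 and 22.5) and fibro-adipogenic transcripts (3957 over 12 genes, against 2143 and 2130), and VCAM1-high replicate 3 the most macrophage and neutrophil transcripts (1017 over 12 genes, against 34.6 and 43.7). Pericyte and smooth muscle transcripts (10 genes) summed to 179 to 491 RPKM in middle-aged, 94.3 to 207 in VCAM1-high, 68.1 to 110 in VCAM1-low and 74.3 to 159 in VCAM1-negative libraries. Vcam1 RNA was 230 to 344 RPKM in middle-aged, 188 to 418 in VCAM1-high, 115 to 177 in VCAM1-low and 48.6 to 122 in VCAM1-negative libraries, and Pax7 was 1.71 to 7.85 in all 11. In bulk RNA, fewer cells of a type and less RNA per cell cannot be told apart.

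By level, the members span a wide range. Fgfr4 averaged 279 RPKM over the 11 libraries (rank 232 of 20640 genes), Spry1 224, Gas1 196 and Fgfr1 155, whereas Spred1 averaged 25.6, Spry4 16.8 and Dusp6 16.1. Spry2 (2.95), Fgf2 (1.79) and Fgf7 (0.541) were low, and Fgf7 reached 1 RPKM in 2 libraries. These cells thus carried abundant receptor and Spry1 RNA and little RNA of either ligand. All 10 passed the filter on low values, Fgf7 through 2 of the VCAM1-negative libraries.

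**Figure D1:**
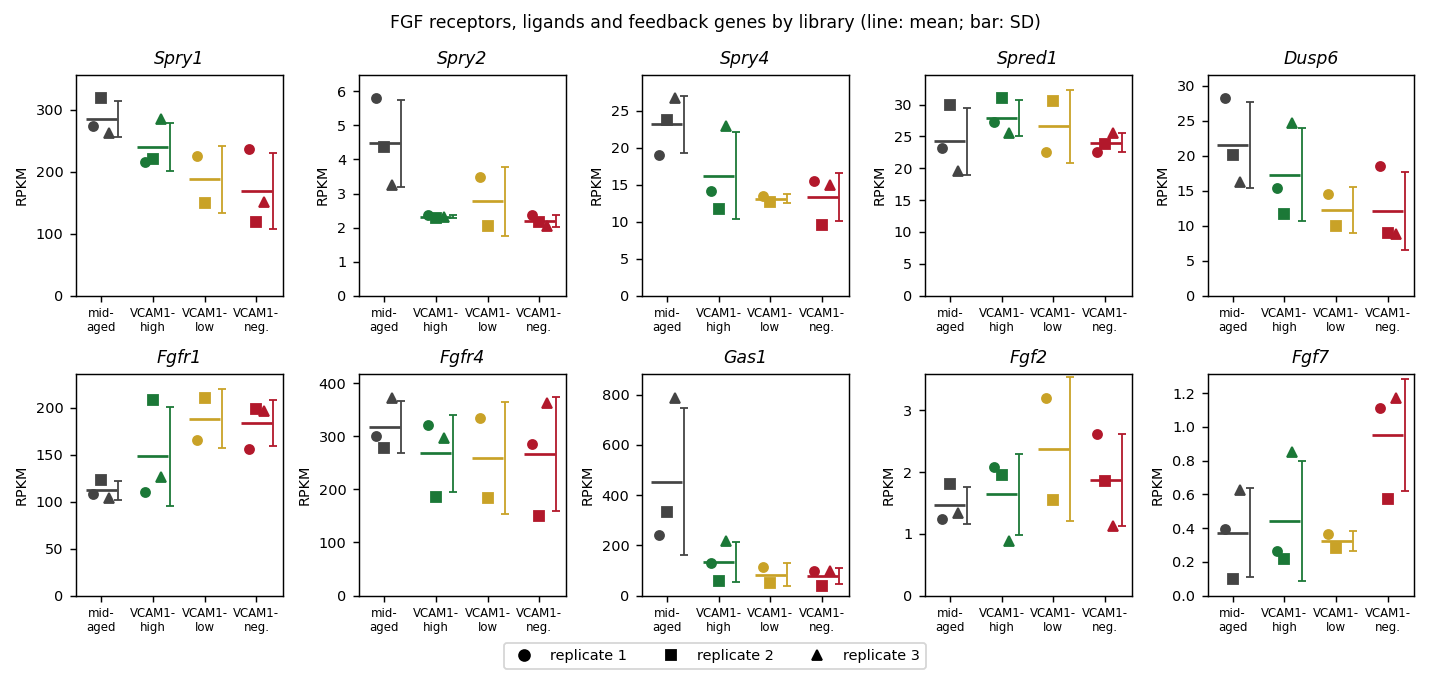
Level of each of the 10 genes in RPKM (vertical axis, from 0) by group (horizontal axis); each point is a library, its shape the replicate number, the line the group mean and the bar the SD. Gas1 lies between 239 and 787 RPKM in middle-aged libraries and between 39.2 and 217 in geriatric ones. Fgfr1 lies between 104 and 124 in middle-aged libraries and higher in VCAM1-low (166 to 211) and VCAM1-negative (156 to 199). In VCAM1-high it spans 111 to 209, which overlaps the middle-aged range.

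Promoter windows from RefSeq (build GRCm38.p6, 250 bases before to 50 after the transcript start, on the gene's strand) were available for 8 of the 10 genes. The windows of Gas1 and Spry2, the members that passed between VCAM1-negative and middle-aged libraries, and of Spry1 and Dusp6, feedback genes that ERK activity induces, are printed 5′ to 3′ to show what sequence precedes each start. Capitals mark CCAAT on either strand.
Gas1 (chr13:60177486-60177785, minus strand): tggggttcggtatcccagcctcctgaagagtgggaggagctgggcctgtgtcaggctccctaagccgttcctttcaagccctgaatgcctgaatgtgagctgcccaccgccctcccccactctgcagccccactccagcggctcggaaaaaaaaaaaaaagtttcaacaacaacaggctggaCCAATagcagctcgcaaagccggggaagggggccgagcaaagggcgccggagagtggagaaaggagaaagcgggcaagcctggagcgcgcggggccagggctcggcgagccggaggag
Spry2 (chr14:105896770-105897069, minus strand): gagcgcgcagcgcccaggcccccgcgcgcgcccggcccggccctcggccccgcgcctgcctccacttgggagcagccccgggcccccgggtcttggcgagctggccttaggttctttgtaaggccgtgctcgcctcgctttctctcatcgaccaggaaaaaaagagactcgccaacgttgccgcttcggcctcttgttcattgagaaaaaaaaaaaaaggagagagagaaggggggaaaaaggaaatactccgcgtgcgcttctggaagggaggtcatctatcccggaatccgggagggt
Spry1 (chr3:37639697-37639996, plus strand): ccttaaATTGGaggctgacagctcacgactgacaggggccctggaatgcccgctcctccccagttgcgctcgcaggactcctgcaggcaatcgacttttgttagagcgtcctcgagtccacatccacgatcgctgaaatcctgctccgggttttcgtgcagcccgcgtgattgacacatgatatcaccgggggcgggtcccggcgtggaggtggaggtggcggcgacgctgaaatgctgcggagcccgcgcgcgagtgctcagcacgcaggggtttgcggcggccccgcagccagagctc
Dusp6 (chr10:99262981-99263280, plus strand): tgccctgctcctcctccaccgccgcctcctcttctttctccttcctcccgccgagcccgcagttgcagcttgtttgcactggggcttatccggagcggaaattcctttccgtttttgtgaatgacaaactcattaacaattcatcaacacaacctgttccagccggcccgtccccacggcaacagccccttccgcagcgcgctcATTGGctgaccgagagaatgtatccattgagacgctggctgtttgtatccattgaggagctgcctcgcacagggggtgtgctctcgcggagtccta
CCAAT was found once in Gas1, Spry1, Dusp6 and Fgf7 and not in the other 4 windows, and 37.4% of 32544 mouse promoter windows of the same length hold it. The letters CCGGAAG (a strict form of the ETS site, in 8.91% of windows), TGANTCA (AP-1, 7.79%), CAGCTG (a form of the E-box, 16.4%) and TATAAA (13.6%), searched on both strands, were found in 0 of the 8. Shorter or looser forms of these sites were not searched, so their absence is not shown. GC content was 62.3% in Gas1, 62.7% in Spry2, 64.3% in Spry1 and 57.3% in Dusp6, against a median of 53% over all windows.

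Spry2 fell between middle-aged and geriatric VCAM1-negative cells, and the lower means of Spry1 and Spry4 did not pass. Spry2 measured 5.80, 4.36 and 3.26 RPKM in the middle-aged libraries; the VCAM1-high libraries held 2.37, 2.27 and 2.32, the VCAM1-low libraries 3.49 and 2.05 and the VCAM1-negative libraries 2.38, 2.17 and 2.04. Every VCAM1-high and VCAM1-negative library lay below every middle-aged one, and VCAM1-low replicate 1 lay above middle-aged replicate 3. The mean was 4.47 ± 1.27 RPKM (SD, n = 3) in middle-aged and 2.20 ± 0.169 (n = 3) in VCAM1-negative libraries, a log2 fold change of -0.75 ± 0.21 (SE, on the log2(RPKM + 1) scale, limma adjusted p = 0.0386 over all genes tested). The same difference in VCAM1-high was -0.70 ± 0.21 (limma adjusted p = 0.155) and in VCAM1-low -0.54 ± 0.23 (0.171). The Spry2 call ends in 6 of the 11 omissions of a library, with adjusted p from 0.0536 without VCAM1-high replicate 1 to 0.123 without middle-aged replicate 1; the others are middle-aged replicate 2 (0.0774) and VCAM1-negative replicates 1 (0.0644), 2 (0.115) and 3 (0.0875). It also ends with no filter on low values (0.0763), in a fit of only the 2 groups (0.0553) and without the libraries numbered 3 (0.0646).

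Spry1, the most abundant Sprouty gene here, measured 274, 319 and 263 RPKM in the middle-aged libraries; the VCAM1-high libraries held 216, 220 and 286, the VCAM1-low libraries 226 and 150 and the VCAM1-negative libraries 237, 119 and 152. VCAM1-low and VCAM1-negative libraries all lay below the middle-aged ones, while VCAM1-high replicate 3 reached into their range. Against middle-aged cells the Spry1 log2 fold change was -0.25 ± 0.26 in VCAM1-high (limma adjusted p = 0.666), -0.62 ± 0.29 in VCAM1-low (0.197) and -0.80 ± 0.26 in VCAM1-negative (0.0592). Spry1 passed in 1 omission of a library, that of VCAM1-negative replicate 1 (adjusted p = 0.0238).

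Spry4 measured 19.1, 23.7 and 26.7 RPKM in the middle-aged libraries; the VCAM1-high libraries held 14.2, 11.7 and 22.9, the VCAM1-low libraries 13.5 and 12.7 and the VCAM1-negative libraries 15.5, 9.60 and 14.95. Again VCAM1-high replicate 3 was the only geriatric library within the middle-aged range. The log2 fold change was -0.53 ± 0.26 in VCAM1-high (limma adjusted p = 0.366), -0.76 ± 0.29 in VCAM1-low (0.129) and -0.77 ± 0.26 in VCAM1-negative (0.0673; 0.0372 without VCAM1-high replicate 3).

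With all 11 libraries, neither of the other feedback members passed in any of the 6 comparisons. Dusp6, for the ERK phosphatase, measured 28.2, 20.1 and 16.2 RPKM in the middle-aged libraries; the VCAM1-high libraries held 15.4, 11.7 and 24.6, the VCAM1-low libraries 14.5 and 9.89 and the VCAM1-negative libraries 18.6, 8.94 and 8.78. Its groups overlap except for VCAM1-low, and the log2 fold change from middle-aged was -0.33 ± 0.34 in VCAM1-high (limma adjusted p = 0.667), -0.76 ± 0.38 in VCAM1-low (0.225) and -0.82 ± 0.34 in VCAM1-negative (0.114). In VCAM1-negative Dusp6 passed in 1 of 11 omissions of a library (limma adjusted p = 0.0478), and with the replicate block in 11 libraries it did not (0.052). Spred1, whose protein restrains Ras with neurofibromin, stayed between 19.6 and 31.0 RPKM in all 11 libraries. Its group means of 24.2 (middle-aged), 27.9 (VCAM1-high), 26.6 (VCAM1-low) and 24.0 RPKM (VCAM1-negative) lie within the SD of the middle-aged group (5.23), and its log2 fold change of VCAM1-negative over middle-aged was 0.00 ± 0.19.

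Gas1 showed the largest fold change of the members. Its product is a membrane-anchored protein named for its rise in growth-arrested fibroblasts, which binds the receptor RET and serves as a Hedgehog co-receptor. Gas1 measured 239, 332 and 787 RPKM in the middle-aged libraries; the VCAM1-high libraries held 129, 57.4 and 217, the VCAM1-low libraries 115 and 51.6 and the VCAM1-negative libraries 97.4, 39.2 and 96.4. All 8 geriatric libraries lay below all 3 middle-aged ones. It fell from 453 ± 293 RPKM (SD, n = 3) in middle-aged to 77.7 ± 33.3 (n = 3) in VCAM1-negative libraries, which is 5.83-fold lower by the means (log2 fold change -2.45 ± 0.57, limma adjusted p = 0.0221). For VCAM1-high (-1.75 ± 0.57, limma adjusted p = 0.192) and VCAM1-low (-2.35 ± 0.64, 0.0602) the difference did not pass.

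Middle-aged replicate 3, with the highest Gas1, is also the library with the most endothelial, tenocyte and fibro-adipogenic transcripts, and Gas1 is known in fibroblasts. In each geriatric gate the library numbered 2 had the lowest Gas1 and the lowest fibro-adipogenic sum (1323 RPKM in VCAM1-high, 1268 in VCAM1-low and 1259 in VCAM1-negative). Middle-aged replicates 1 and 2 had the opposite order (2143 and 2130), as had VCAM1-negative replicates 1 and 3 (2096 and 2327). The part of these transcripts in the result was not tested. The Gas1 call ends without middle-aged replicate 3 (log2 fold change -1.96, adjusted p = 0.0634), without VCAM1-negative replicate 2 (-2.02, 0.0886) and with no filter on low values (0.0572). With the libraries numbered 3 of all 3 groups left out, an omission chosen after seeing the data, it fell by 2.17 (0.0484). Mature fibre transcripts are higher in VCAM1-negative libraries than elsewhere, and pericyte and smooth muscle transcripts are lower in VCAM1-low and VCAM1-negative than in middle-aged libraries without overlap. The part of either in the values of Gas1 and the Sprouty genes was not tested.

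Without a replicate block and with all 11 libraries, neither receptor passed in any comparison. Fgfr1 measured 108, 124 and 104 RPKM in the middle-aged libraries; the VCAM1-high libraries held 111, 209 and 126, the VCAM1-low libraries 166 and 211 and the VCAM1-negative libraries 156, 199 and 197. VCAM1-low and VCAM1-negative libraries all lay above the middle-aged ones, with log2 fold changes of 0.74 ± 0.26 (limma adjusted p = 0.116) and 0.71 ± 0.24 (0.066), and the value in VCAM1-high was 0.35 ± 0.24 (0.505). In a fit of only the middle-aged and VCAM1-negative groups Fgfr1 passed (adjusted p = 0.0456), while Spry2 did not (0.0553), and without VCAM1-high replicate 2 Fgfr1 passed as well (0.031). Fgfr4, the receptor most closely tied to myogenic cells, ranged from 279 to 372 RPKM in middle-aged, 186 to 321 in VCAM1-high, 184 to 334 in VCAM1-low and 150 to 363 in VCAM1-negative libraries. These ranges overlap, with log2 fold changes of -0.27 ± 0.34 (VCAM1-high), -0.34 ± 0.38 (VCAM1-low) and -0.33 ± 0.34 (VCAM1-negative). Within each geriatric gate the libraries numbered 2 had the lowest Fgfr4: 186, 184 and 150 RPKM.

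Of the ligands, Fgf2 had overlapping groups and Fgf7 was the lowest of the members. Fgf2, a broadly acting ligand and a mitogen for muscle stem cells, measured 1.24, 1.81 and 1.34 RPKM in the middle-aged libraries; the VCAM1-high libraries held 2.09, 1.95 and 0.883, the VCAM1-low libraries 3.20 and 1.55 and the VCAM1-negative libraries 2.63, 1.86 and 1.13. No limma adjusted p of Fgf2 against middle-aged was under 0.408. Fgf7, a ligand that in other tissues passes from mesenchymal to epithelial cells, measured 0.397, 0.101 and 0.624 RPKM in the middle-aged libraries; the VCAM1-high libraries held 0.262, 0.216 and 0.851, the VCAM1-low libraries 0.364 and 0.279 and the VCAM1-negative libraries 1.11, 0.570 and 1.17. VCAM1-negative replicate 2 lay within the middle-aged range. Fgf7 entered the fit through the other VCAM1-negative libraries, so its log2 fold change of VCAM1-negative over middle-aged, 0.51 ± 0.24, is given with no test.

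**Figure D2:**
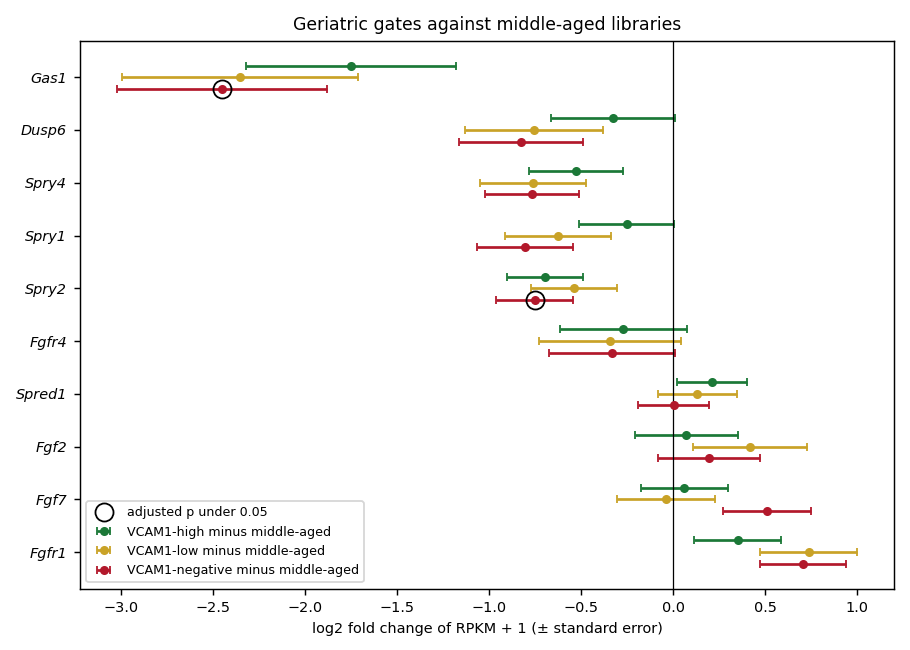
Log2 fold change of each member on the log2(RPKM + 1) scale (horizontal axis) for each geriatric gate minus middle-aged, with the standard error of the limma fit as bars; a ring marks adjusted p under 0.05. Gas1 and Spry2 in VCAM1-negative carry the rings, at -2.45 and -0.75, Fgfr1 lies right of 0 in all 3 gates, and the gates share the same middle-aged libraries.

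Of the 10 members, 2 were lower and 0 higher in VCAM1-negative than in middle-aged libraries, where 14.4% of the 11568 genes tested passed (7.38% lower and 7.06% higher). In libraries that did not overlap, 4 members were lower (Spry1, Spry2, Spry4 and Gas1), against 20.3% of all genes, and 1 was higher (Fgfr1), against 18.7%. Their median log2 fold change was -0.54, beside -0.02 over all genes tested. Limma called 0 members in VCAM1-high against middle-aged (0.605% of all genes passed); 2 (Gas1 and Spry2) had an unadjusted p under 0.05, against 14.9% of all genes, and the same 2 were lower without overlap, against 6.36%. In VCAM1-low against middle-aged limma called 0 (4.11%); 4 had an unadjusted p under 0.05, against 26.4%, and without overlap 4 were lower (Spry1, Spry4, Dusp6 and Gas1), against 24.9%, and 1 higher (Fgfr1), against 19.9%. The median member changed by -0.26 in VCAM1-high, beside 0.04 over all genes, and by -0.44 in VCAM1-low, beside -0.05. The limma F test over the 4 groups called 0 members and 3.32% of all genes. By that test Gas1 had the smallest p of the members (unadjusted 0.00509, adjusted 0.0771), followed by Spry2 (adjusted 0.128).

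With a block for replicate number, Gas1 (limma adjusted p = 0.0219) and Spry2 (0.0465) passed in VCAM1-high against middle-aged. There 6.98% of all genes passed, against 0.605% without the block. The labels do not say what a number marks, and mice of these ages cannot be the same animals, so this is not a paired result.

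Between the geriatric gates, by limma, 0 of 10 passed between VCAM1-negative and VCAM1-high (0% of all genes), 0 between VCAM1-low and VCAM1-high (0%) and 0 between VCAM1-negative and VCAM1-low (0%), and 0 members had an unadjusted p under 0.05 in any of them, against 6.53%, 2.91% and 1.88% of all genes. No gate was thus told apart from another by this fit, which does not show that they are the same. Spry1, Dusp6 and Gas1 had means in the order middle-aged, VCAM1-high, VCAM1-low, VCAM1-negative, and no pair of neighbours in that order passed without the replicate block. Fgf7 was higher in all 3 VCAM1-negative libraries than in both VCAM1-low libraries, as were 5.77% of all genes; nothing is read from this, since it passed the filter through VCAM1-negative libraries.

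Same-numbered libraries of the geriatric gates deviated together, so gates were also compared within a number. The link between them was read from these same values, and the labels do not say what a number marks. The comparisons below are thus not a paired result. Gas1 was lower in VCAM1-negative than in VCAM1-high in 3 of 3 numbers: 97.4 against 129 RPKM, 39.2 against 57.4 and 96.4 against 217. The share of all genes lower in 3 of 3 was not counted, so nothing is read from this count. Fgf7 was higher in 3 of 3, but it entered the fit through VCAM1-negative libraries. When the 8 geriatric libraries were fitted with a term for replicate number, Gas1 passed (-0.70 ± 0.15, limma adjusted p = 0.0495), as did 4.17% of all genes, while without the block its adjusted p was 0.88, and with the block in all 11 libraries 0.374. Spry1 was lower in 2 of 3 numbers (-0.55 ± 0.20, 0.16), and Fgfr1 higher in 2 of 3 (0.35 ± 0.15, 0.221).

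**Figure D3:**
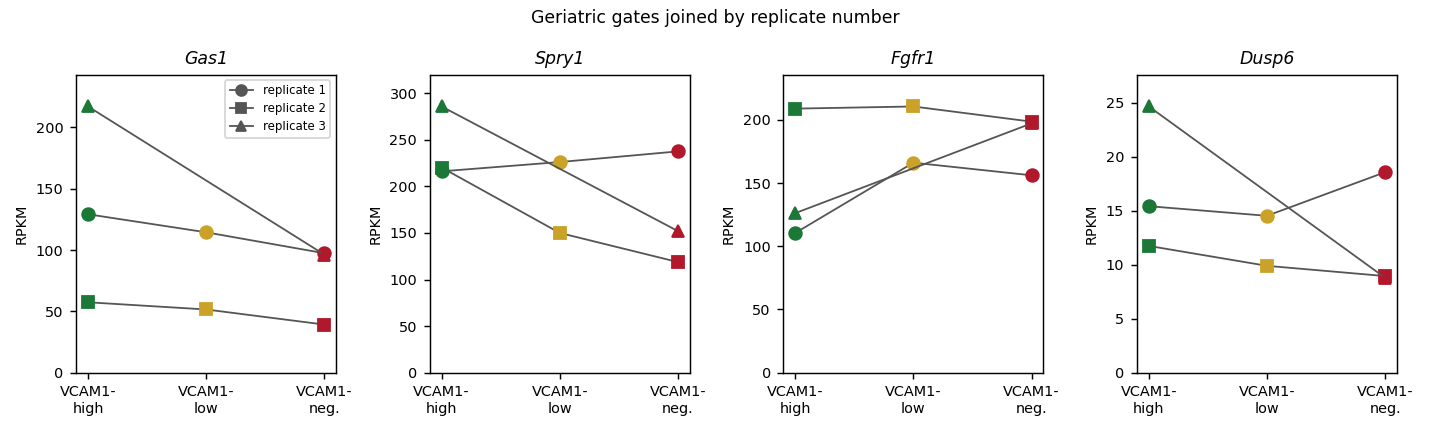
Levels in RPKM (vertical axis, from 0) of Gas1, Spry1, Fgfr1 and Dusp6 in the 3 geriatric gates (horizontal axis), with lines joining libraries of the same replicate number; number 3 has no VCAM1-low library. Gas1 goes down along every line, while Spry1 and Dusp6 go down from VCAM1-high to VCAM1-negative along those of numbers 2 and 3 and up along that of number 1.

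The members were set beside 7 lists of other genes (132 genes, 108 tested). All are lists of the FGF pathway except that of Gas1 partners, which holds RET-related receptor and Hedgehog genes. The counts that follow pool all 7 lists, so they are not for the FGF pathway alone. Between VCAM1-negative and middle-aged libraries 7 of them rose and 12 fell, which is 17.6% of those tested, near the 14.4% of all genes. In VCAM1-high against middle-aged 0 rose and 1 fell (0.926%, against 0.605% of all genes), and in VCAM1-low 1 rose and 4 fell (4.63%, against 4.11%). Between gates limma called 0 of the 108; 13 (12%, against 6.53% of all genes) had an unadjusted p under 0.05 between VCAM1-negative and VCAM1-high, 7 (6.48%, against 2.91%) between VCAM1-low and VCAM1-high and 1 (0.926%, against 1.88%) between VCAM1-negative and VCAM1-low.

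Among other feedback inhibitors (17 of 20 tested) 3 rose in VCAM1-negative over middle-aged libraries and 0 fell (17.6%, near the 14.4% of all genes). The median log2 fold change of the list was 0.32, beside -0.02 over all genes. The 3 are dual-specificity phosphatase genes like Dusp6, whose own value in this comparison was -0.82 ± 0.34 and did not pass. Dusp5, for a nuclear ERK phosphatase, read 28.7, 41.9 and 26.9 RPKM in middle-aged and 67.5, 89.2 and 77.0 in VCAM1-negative libraries (1.25 ± 0.29, limma adjusted p = 0.021). Dusp7, for a cytoplasmic phosphatase of the same subgroup as DUSP6, read 2.68, 2.18 and 3.95 against 7.05, 7.41 and 5.98 (1.01 ± 0.22, 0.0192). Dusp4, for another nuclear enzyme, read 4.14, 4.40 and 3.52 against 9.89, 7.02 and 7.36 (0.85 ± 0.17, 0.0155). In none of the 3 did the groups overlap, and their differences in VCAM1-high did not pass. Dusp4 passed in 11 of 11 omissions of a library, Dusp7 in 8 and Dusp5 in 7; without the libraries numbered 3 the adjusted p was 0.0679 for Dusp4 and 0.0971 for Dusp5. Errfi1 (1943 RPKM on average), Dusp1 (1072) and Dusp5 (63.2) had the highest levels of the list.

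Genes that ERK is known to induce (20 of 20 tested) split in VCAM1-negative against middle-aged, with 3 higher, 2 lower and 15 not passing (25% passed, against 14.4% of all genes). Ccnd1, for the cyclin that leads cells out of G1, measured 18.5, 5.34 and 20.7 RPKM in the middle-aged libraries; the VCAM1-high libraries held 1.86, 1.75 and 7.58, the VCAM1-low libraries 0.801 and 0.706 and the VCAM1-negative libraries 1.11, 0.499 and 0.951. It fell by 2.92 ± 0.50 on the log2 scale in VCAM1-negative (limma adjusted p = 0.00876) and by 2.99 ± 0.56 in VCAM1-low (0.0243). Klf10, a transcription factor gene also induced by TGF-beta, rose from 59.7, 58.9 and 41.4 RPKM to 155, 282 and 219 in VCAM1-negative (1.99 ± 0.34, 0.00893). Klf10 also passed in VCAM1-low (1.64 ± 0.38, 0.043). Ccnd1 and Klf10 passed in VCAM1-negative in 11 of 11 omissions, and in VCAM1-low in 7 and 3. Egr2 (0.89 ± 0.21, 0.0217) rose too, and Srf, for a factor that works at the promoters of many early genes, fell (-0.77 ± 0.18, 0.023). Myc (0.82 ± 0.21, 0.0289), named after its values were seen, was the other gene to rise. Junb (5633 RPKM), Fos (4405) and Egr1 (4076) had the highest mean levels of the list and did not pass.

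Heparan sulfate genes (12 of 12 tested) gave 1 higher and 2 lower in VCAM1-negative against middle-aged (25%, against 14.4% of all genes). Both chain-building enzymes of the Golgi polymerase fell: Ext1 from 21.1, 26.8 and 32.6 RPKM to 10.98, 10.3 and 13.2 in VCAM1-negative (-1.14 ± 0.26, limma adjusted p = 0.0207), and Ext2 from 86.7, 63.2 and 88.9 to 38.5, 25.6 and 42.5 (-1.16 ± 0.30, 0.0317). Hs6st1, which adds sulfate to the finished chain, rose (0.92 ± 0.21, 0.0218). Of the core proteins and receptors (17 of 20 tested) 3 fell and 0 rose (17.6%, near the 14.4% of all genes). Those that fell were the syndecan gene Sdc2 (-1.09 ± 0.27, 0.0263), the glypican gene Gpc6 (-0.66 ± 0.19, 0.046) and the adhesion gene Ncam1 (-0.78 ± 0.22, 0.0431). Sdc4, the most abundant of the list at 900 RPKM, did not pass. Among the other ligands 5 of 20 were tested and Fgf11, an intracellular homologous factor that is not secreted, fell (-1.14 ± 0.30, 0.0342), while Fgf13 (9.50 RPKM) and Fgf16 (3.39) had the highest levels.

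Of the genes that work with Gas1 (15 of 17 tested), 0 passed as higher and 4 as lower in VCAM1-negative against middle-aged (26.7%, against 14.4% of all genes). Ret, for the receptor kinase that GAS1 binds, measured 4.32, 4.17 and 8.15 RPKM in the middle-aged libraries; the VCAM1-high libraries held 0.734, 0.849 and 1.96, the VCAM1-low libraries 1.55 and 1.05 and the VCAM1-negative libraries 1.43, 1.004 and 1.86. Like Gas1 it was lower in all 8 geriatric libraries than in all 3 middle-aged ones, and it passed in VCAM1-high (-1.58 ± 0.28, limma adjusted p = 0.0373), VCAM1-low (-1.46 ± 0.31, 0.0356) and VCAM1-negative (-1.39 ± 0.28, 0.0143); of 11 omissions it passed in 10 (VCAM1-negative), 4 (VCAM1-low) and 1 (VCAM1-high). The Hedgehog transducer gene Smo (-0.93 ± 0.25, 0.0364), the co-receptor gene Cdon (-0.69 ± 0.19, 0.0361) and the Hedgehog-binding gene Hhip (-0.63 ± 0.19, 0.049) fell in VCAM1-negative. Boc, a co-receptor related to Cdon and the most abundant of the list (30.5 RPKM), did not pass. In the cascade itself, from adaptors to ERK (22 of 23 tested), limma called 0 genes in any of the 6 comparisons. In VCAM1-negative against middle-aged, 5 of them (22.7%) had an unadjusted p under 0.05, beside 33.3% of the 108 genes of all lists. In VCAM1-high against middle-aged 1 did (4.55%, against 14.9% of all genes), and in VCAM1-low 1 (4.55%, against 26.4%). Between VCAM1-negative and VCAM1-high 1 did (4.55%, against 6.53%). The values were 1 (4.55%, against 2.91%) between VCAM1-low and VCAM1-high and 0 (against 1.88%) between VCAM1-negative and VCAM1-low. The median log2 fold change of VCAM1-negative over middle-aged was 0.00, and Map2k1 (57.7 RPKM) and Shc1 (52.9) were among the more abundant.

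Several of the VCAM1-negative calls end under other settings. Of 11 omissions of a library, Ret passed in 10, Ext1 in 9, Myc, Srf and Hs6st1 in 8, Egr2, Ext2, Fgf11, Sdc2 and Cdon in 7, Smo in 5, Ncam1 in 3, and Gpc6 and Hhip in 1, and none of the 19 genes changed direction. Of the other settings, Hhip passed in 3 of 7, Gpc6 in 4 of 7, Fgf11 in 5 of 7, Cdon and Ncam1 in 5 of 8, Myc in 6 of 8, and the other 13 in all or all but 1.

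**Figure D4:**
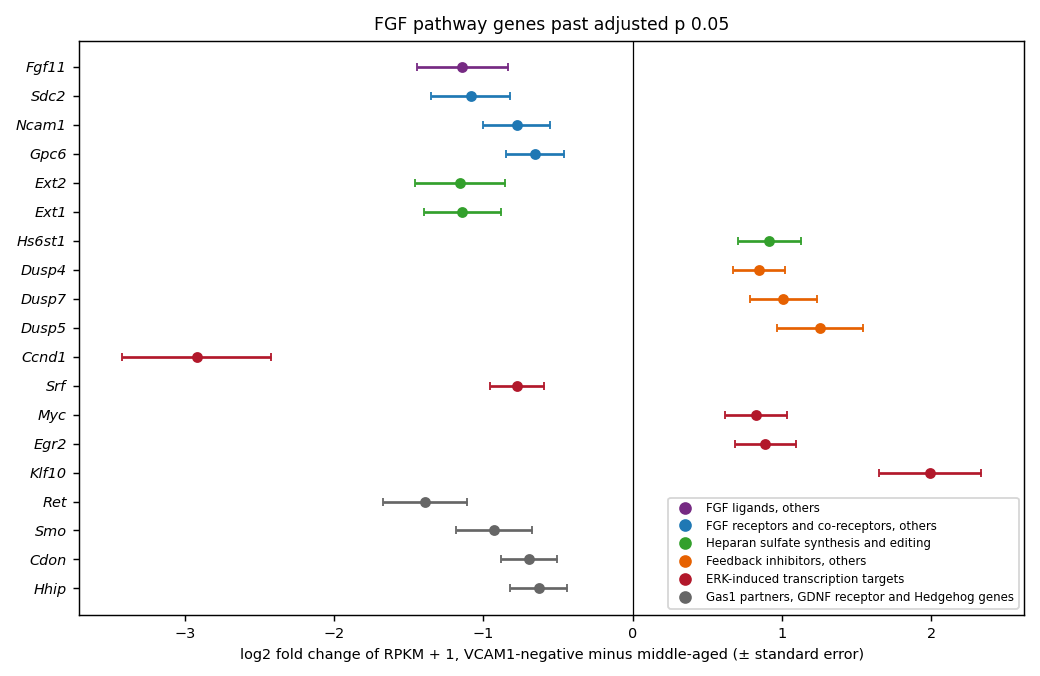
The 19 genes of the 7 lists that passed limma's adjusted p of 0.05 between VCAM1-negative and middle-aged libraries, with log2 fold change on the log2(RPKM + 1) scale (horizontal axis), standard error as bars and colour for the list. Ret, Smo, Cdon and Hhip come from the list of Gas1 partners and are not FGF pathway genes, although the figure's title names that pathway. Dusp4, Dusp7, Dusp5, Hs6st1, Myc, Egr2 and Klf10 lie right of 0 and the other 12 left of it, Ccnd1 furthest at -2.92.

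The genes most alike to a member were sought by the correlation of log2(RPKM + 1) over the 11 libraries, a description in which the libraries share 4 groups and 3 replicate numbers. Gas1 went most closely with Vwa1 (r = 0.981), Vgll4 (0.978) and Edn3 (0.977), Spry2 with Capns1 (0.979), Nectin1 (0.946) and Prmt1 (0.945), and Fgfr1 with Fbrsl1 (0.964), Ulk1 (0.960) and Hap1 (0.959). Nck2, an adaptor gene, stood among the 3 closest of both Spry1 (0.943) and Dusp6 (0.929). Among the members themselves the closest pairs were Spry4 with Gas1 (0.949) and Spry1 with Dusp6 (0.881), and Fgfr1 ran against Gas1 (-0.861), Dusp6 (-0.800), Spry4 (-0.781) and Spry1 (-0.745).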

How the data were processed

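The authors deposited RPKM values per gene symbol for 11 libraries. Per the submitters' processing notes, the build was GRCm39 and the tools listed were STAR 2.7.5b, Bowtie2 2.1.0, SAMtools 0.1.19 and cutadapt 3.1; the counting tool, the annotation and the gene lengths were not given in the sources used here. cDNA was made with a SMART-Seq kit, per the labels' protocols. RPKM values are not counts, so log2(RPKM + 1) was fitted with limma 3.58.1 in R 4.3.3 (4 group means, variance trend, no replicate block), on genes that reached 1 RPKM in 2 libraries or more, with Benjamini-Hochberg adjustment over 11568 genes. A gene passed, and is said to rise or fall, at adjusted p under 0.05. A fold change on this scale understates that of low genes. The fit was run on simulated data with known changes in VCAM1-negative libraries. Of 100 changes of 1 on the log2 scale 46% passed, and of 100 changes of 2, 92%, with 5 of 143 calls false. The changes were placed only in genes of higher level than Spry2, Fgf2 and Fgf7. Simulated libraries shared no effect of replicate number, so the run does not cover such genes or such an effect.

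Depth was estimated from the steps of low RPKM values (0.1 or less) in genes with 1 transcript in GENCODE M21; 63.3% to 72.1% of these values lay within 0.1 of a whole read. The authors' gene lengths may differ, so depths are estimates. The members and the lists were chosen with earlier results of these data known. Other genes named are, per pathway list, up to 4 that passed in any comparison and the 3 of highest level, and per member the 3 most correlated; Myc is named outside this rule, and 1 gene that the rule names is not reported here. Same-numbered libraries deviated together from their group means across genes within the geriatric gates (r of 0.403 to 0.581 in 7 pairs, against -0.569 to 0.0940 in 14 pairs of unlike number). Between VCAM1-high and middle-aged the same-numbered r were 0.211, 0.332 and 0.554. Pairs of unlike number there ranged from -0.483 to 0.331, so these ranges overlap. Deviations within a group sum to 0, so a high r in same-numbered pairs lowers r in the others, and the 14 pairs are not an independent contrast. The labels do not say what a number marks, and mice of these ages cannot be the same animals. Promoter sequences are RefSeq's on GRCm38.p6, which is not the authors' build. The only other coordinates used were those of exons in GENCODE M21, for the transcript lengths in the depth estimate. Alternatives were another pseudocount, other filters and scalings, a replicate block, fits of 2 groups and omissions of each library.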

Additional observations from a re-analysis of the deposited data

How the results depend on the processing

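In VCAM1-negative against middle-aged, 2 members passed; without the filter on low values 0 did (Gas1 adjusted p = 0.0572, Spry2 0.0763), at a mean of at least 5 RPKM 1 (Spry2 was then not tested), without the libraries numbered 3 1, in the fit of 2 groups 2 (Gas1 and Fgfr1, not Spry2), with the replicate block in 11 libraries 6 (Spry1, Spry2, Spry4 and Gas1 lower, Fgfr1 and Fgf7 higher; Fgf7 entered the fit through VCAM1-negative libraries, so its call is not counted as support), and without 1 library 0 to 3. In VCAM1-low against middle-aged, 0 passed; at a mean of 5 RPKM or in the fit of 2 groups 1 did, with the block 2, and without 1 library 0 to 1. With the block 2 members passed in VCAM1-high against middle-aged (6.98% of all genes did) and 3 in the F test (0 to 1 without 1 library). In the 8 geriatric libraries 1 passed in VCAM1-negative against VCAM1-high (4.17% of all genes). In each comparison with middle-aged the block also raised the count of all genes, given in the next paragraph. The rise in member counts is thus not particular to the members. For the F test with the block, all genes passing were not counted. The block in 11 libraries is not a paired analysis for VCAM1-negative or VCAM1-low against middle-aged, whose same-numbered libraries did not all deviate together (r from -0.0246). Nor can it be taken as one for VCAM1-high against middle-aged, since the labels do not say what a number marks.

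Of all genes, 70 passed in VCAM1-high against middle-aged (20 without the filter, 14 in the fit of 2 groups, 807 with the block, 18 to 240 without 1 library), 1671 in VCAM1-negative against middle-aged (870, 1477, 3656, and 339 to 1836; 826 without the libraries numbered 3) and 475 in VCAM1-low against middle-aged (104, 475, 1827, and 1 to 825). In VCAM1-negative against VCAM1-high 0 passed, 22 with a pseudocount of 0.1, 18 at a mean of 5 RPKM, 16 by median-ratio and 13 by equal-sum scaling, 65 with the block in 11 libraries, 482 in 8, 9 without the libraries numbered 3, and 0 to 128 without 1 library. In VCAM1-low against VCAM1-high 0 passed (1 with the geriatric block), and in VCAM1-negative against VCAM1-low 0 (0 to 117 without 1 library). The cause of these shifts was not tested.

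Gas1, Spry1, Spry2, Dusp6 and Fgfr1 kept their direction in the comparisons with middle-aged and in VCAM1-negative against VCAM1-high under every alternative run, as did Spry4 except in the latter without VCAM1-high replicate 3. Small differences that reversed were Spred1 without the libraries numbered 3 (-0.18 in VCAM1-negative and -0.002195 in VCAM1-low against middle-aged), Fgf7 in VCAM1-low against middle-aged (0.012 with a pseudocount of 0.1 and 0.098 with the block) and Fgfr4 in VCAM1-negative against VCAM1-high (0.016 by median-ratio scaling). Omitting 1 library gave, in VCAM1-high against middle-aged, -0.056 to 0.30 for Fgf2 and -0.13 to 0.19 for Fgf7; in VCAM1-negative against middle-aged, -0.13 to 0.16 for Spred1 and -0.60 to 0.035 for Fgfr4; in VCAM1-negative against VCAM1-high, -0.43 to 0.022 for Spry4, -0.33 to 0.31 for Fgfr4 and -0.11 to 0.32 for Fgf2; and in VCAM1-low against middle-aged, -0.080 to 0.35 for Spred1, -0.77 to 0.085 for Fgfr4 and -0.19 to 0.092 for Fgf7. Fgf7, at a mean of 0.541 RPKM, is the member that depth limits most.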
